A study of Mus musculus with 67 samples.

Results

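The 1d response of the retina was compared with the 1d response of the retinal pigment epithelium (RPE), gene by gene, in mice that carry the genotype Abca4-/- Rdh8-/-. Every gene listed in both tissue tables was taken, 15108 of the 16930 genes listed for retina and of the 16714 listed for RPE, and 15105 of them passed the filter on low values in both. The comparison used 19 of the 67 libraries of the series: retina NB (n = 6), retina 1d (n = 4), RPE NB (n = 5) and RPE 1d (n = 4). The labels do not spell out NB, which served as the reference of its own tissue, and they leave unsaid what event the 1 day is measured from.

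All 4 groups share the double deletion, on the C57BL/6J background per the series' design text, and the protocols call the mice photosensitive. Age and sex are not given in the labels. Each library held both eyes of 1 mouse. The retina was lifted off into RNAlater after cornea, iris and lens had been removed, and RPE cells were shaken off the opened eyecup into RNAprotect before the choroid was discarded. Whether a retina and an RPE library of the same number came from the same mouse is not stated. Since the labels do not say that the mice came from separate litters or days, p-values measure the spread between these libraries.

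The retina holds the photoreceptors, the neurons they signal to, and Muller glia, which span its depth and turn reactive after injury. The RPE is the pigmented cell layer behind the photoreceptors. It takes up shed outer segments and runs the visual cycle, in which RPE65 turns all-trans retinyl esters back into 11-cis retinol. ABCA4 and RDH8 clear all-trans retinal from outer segments, and mice without both are used as a model of light-induced photoreceptor loss. Abca4 and Rdh8 transcripts were still read in every library, which checks nothing about the deletions. Abca4 fell in retina by 1.04 on the log2 scale (adjusted p = 1.65e-09) and its difference between tissues passed the test (-0.71 ± 0.16 SE, adjusted p = 0.00153), whereas the difference for Rdh8 did not (-0.69 ± 0.28, adjusted p = 0.0723).

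Read depth recovered from the deposited values was 9.92 to 15.2 M reads in 4 retina NB libraries and 29.8 to 32.3 M in the other two. It was 9.45 to 11.3 M at retina 1d, 13.0 to 14.4 M in 4 RPE NB libraries, 23.1 M in the fifth (called RPE NB A1 here), and 11.5 to 14.1 M at RPE 1d. No 2 libraries of a group agreed within sampling noise. RPE NB A1 and RPE 1d 4 lay at the ends of the first principal component of the RPE libraries. The RPE libraries carried transcripts of surface epithelium, the keratin-rich covering of the front of the eye: 8 such genes summed to 19760 to 50897 CPM in RPE NB and to 34566 to 68555 CPM at RPE 1d, ranges that overlap, against 10.7 to 27.0 CPM in retina. None of the 8 genes passed a test in either tissue, and class sizes with their sum as a covariate are given with the other settings.

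Each tissue's response was the difference of 1d and NB in log2(CPM + 0.5), where CPM stands for a gene's reads scaled to the authors' effective library size. It was tested with limma, with p-values adjusted by Benjamini and Hochberg over all genes and a threshold of 0.05. Errors of log2 values are SE and errors of CPM are SD. In retina 51.5% of 16926 genes passed (4057 higher, 24% of those tested, and 4662 lower, 27.5%). Changes of at least 2-fold passed for 606 genes higher (3.58%) and 374 lower (2.21%) in retina. In RPE 5.61% of 16712 genes passed (296 higher, 1.77%, and 641 lower, 3.84%), with 137 (0.82%) and 233 (1.39%) by at least 2-fold. Among the 15105 genes of both tables the shares were 53.2% and 5.55%. The median SE of a gene's log2 change was 0.084 in retina and 0.17 in RPE, so these shares do not compare the sizes of the responses. The difference between the responses was tested on its own in 1 fit of both tissues. It passed in 3284 of 15105 genes (21.7%), with 1825 genes responding more positively in retina (12.1%) and 1459 more negatively (9.66%), of which 672 (4.45%) and 328 (2.17%) by at least 2-fold. With values scaled to library totals, 3904 genes passed and 82.9% of them were more positive in retina, against 55.6% here. That scaling moved the median difference of all genes by 0.17, so directions are relative to the authors' scaling.

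From the 3 tests each gene fell into a response class. A gene responded in retina alone when it passed in retina and not in RPE and the difference also passed: 2478 genes (16.4% of 15105), of which 1244 were higher (8.24%) and 1234 lower (8.17%). RPE alone held 245 genes (1.62%), with 37 higher (0.245%) and 208 lower (1.38%). A shared response, past in both tissues in the same direction, was met by 401 genes (2.65%), with 206 higher (1.36%) and 195 lower (1.29%). Opposite responses were met by 123 genes (0.814%), with 105 higher in retina and lower in RPE (0.695%) and 18 the reverse (0.119%). For another 5032 genes called in retina and not in RPE (33.3%) the difference did not pass, and those genes were assigned to neither tissue (2316 higher, 15.3%, and 2716 lower, 18%). The same held for 70 genes called in RPE (0.463%), 12 higher (0.0794%) and 58 lower (0.384%). For 291 genes the difference passed and neither tissue did (1.93%), with 171 more positive (1.13%) and 120 more negative in retina (0.794%). A lack of response in the other tissue was bounded for 1488 of the 2478 retina genes and 219 of the 245 RPE genes, whose 95% intervals there lay within 1.5-fold either way. At the edge of the threshold, Ipo13 (difference 0.24 ± 0.088, adjusted p = 0.0499) passed and Hapln3 (-0.48 ± 0.18, adjusted p = 0.0501) did not.

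**Figure D1:**
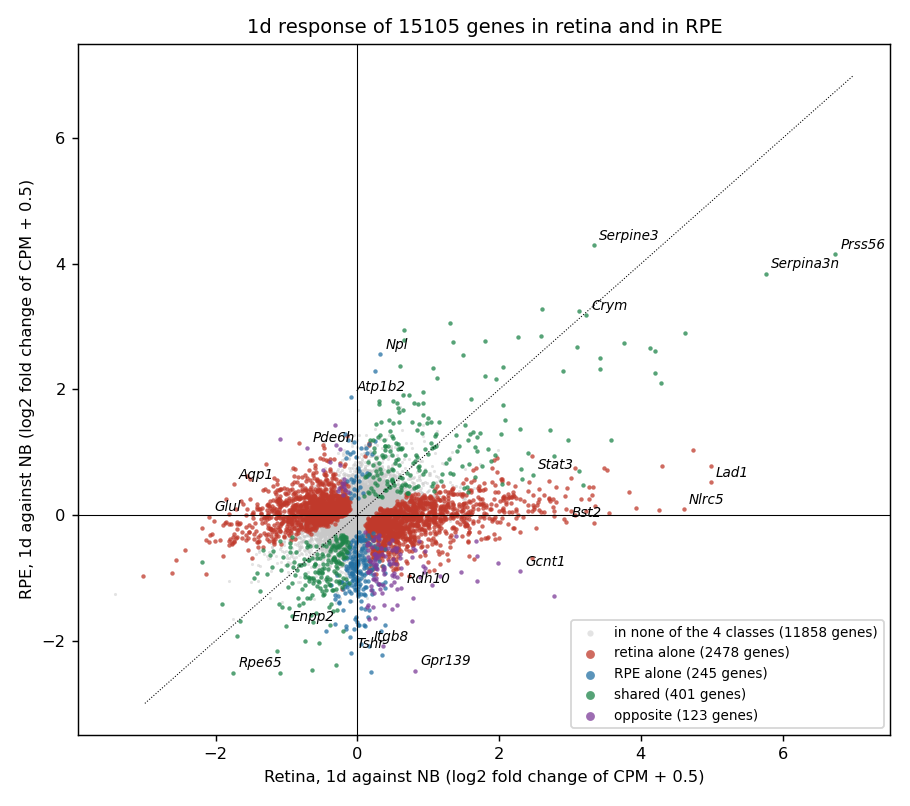
Log2 fold change of 1d against NB in retina (x axis) and in RPE (y axis) for 15105 genes, colored by response class, with equal responses on the dotted line. Genes that responded in retina alone (2478) spread along the x axis and those of RPE alone (245) along the y axis, while the 401 shared genes lie in the upper right and lower left.

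The interferon and antigen presentation genes rose in retina, and few of them passed in RPE. These genes carry the cell's antiviral programme and load peptides onto major histocompatibility class I. All 32 measured genes of the list rose in retina, where 25.6% of the 15105 genes did. In RPE 1 of 32 rose (Irf8, log2 change 0.47 ± 0.11) and none fell, where 1.81% rose and 3.75% fell. Irf8 no longer passed in RPE without RPE 1d 1 (adjusted p = 0.0532) or RPE 1d 4 (0.0589), with NB and 1d groups alone in the fits (0.0980) or with the replicate block (0.120). Its RPE means were 3.16 CPM in NB and 4.57 CPM at 1d. The RPE to retina ratios of rod genes, given below, would put it at 0.098 and 3.29 CPM. The difference passed in 30 of 32, by 0.93 to 4.51 on the log2 scale, and 29 were in the retina alone class. The median log2 change of the list was 2.10 in retina and 0.15 in RPE, beside -0.00068 and 0.00099 over all genes.

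Library values of Nlrc5, Bst2 and Cxcl10 show the pattern. Nlrc5 (chr8:94434335-94527272 in GRCm38), the transactivator of class I genes, ranged from 0.4996 to 1.07 with a median of 0.891 CPM in the 6 retina NB libraries and read 43.2, 28.6, 22.2 and 39.8 CPM in the 4 retina 1d libraries. The groups do not overlap. In RPE it read 17.7, 2.84, 11.6, 37.2 and 19.6 CPM in NB and 11.4, 11.5, 19.7 and 17.1 CPM at 1d, so that all 4 RPE 1d libraries fell inside the NB range. The log2 change was 4.6 ± 0.18 in retina (adjusted p = 2.61e-13) and 0.09 ± 0.50 in RPE (adjusted p = 0.944, 95% interval -0.97 to 1.15), and the difference 4.51 ± 0.55 passed (adjusted p = 5.8e-07). A change in RPE inside that interval was not detectable.

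Bst2 (chr8:71534255-71537472), which codes for the virus-tethering protein tetherin, had a tighter bound in RPE. It ranged from 1.06 to 3.11 with a median of 1.69 CPM in retina NB and read 19.5, 16.1, 10.99 and 22.1 CPM at retina 1d, without overlap. RPE held 38.6, 41.2, 45.6, 83.5 and 60.6 CPM in NB and 41.3, 55.3, 42.1 and 53.9 CPM at 1d. The log2 change was 2.94 ± 0.25 in retina and -0.11 ± 0.21 in RPE (95% interval -0.56 to 0.34, inside 1.5-fold), with a difference of 3.06 ± 0.35 (adjusted p = 2.95e-07). Cxcl10 (chr5:92346638-92348889), a chemokine of the same response, ranged from 0 to 0.664 with a median of 0.0900 CPM in retina NB and read 9.79, 3.57, 4.27 and 8.03 CPM at 1d, while RPE read 0.943, 0.437, 0.941, 1.71 and 4.68 CPM in NB and 1.104, 0.546, 1.54 and 1.90 CPM at 1d. All 4 retina 1d libraries stood above every retina NB library, and the RPE groups overlapped.

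The promoters of Bst2 and Cxcl10 are shown because they hold the interferon-stimulated response element searched for, GAAA and GAAA with any 2 bases between them, on either strand, with matches in capitals. They cover the 250 bases before the RefSeq start listed first (GRCm38.p6), 5′ to 3′ along the gene's own strand. Both were picked after the match was seen.
Bst2 (chr8:71537473-71537722, minus strand): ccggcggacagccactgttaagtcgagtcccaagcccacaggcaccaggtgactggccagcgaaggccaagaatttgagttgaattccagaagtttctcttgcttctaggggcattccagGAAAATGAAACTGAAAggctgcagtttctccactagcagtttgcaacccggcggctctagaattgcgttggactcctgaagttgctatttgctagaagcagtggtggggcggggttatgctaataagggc
Cxcl10 (chr5:92348890-92349139, minus strand): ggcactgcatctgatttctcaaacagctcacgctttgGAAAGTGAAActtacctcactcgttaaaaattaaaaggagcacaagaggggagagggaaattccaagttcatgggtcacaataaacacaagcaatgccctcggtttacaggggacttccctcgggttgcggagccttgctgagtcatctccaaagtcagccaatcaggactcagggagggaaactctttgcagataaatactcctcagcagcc
The 2 matches in Bst2 overlap and begin 130 and 124 bases before the start, and that in Cxcl10 begins 213 bases before it. The element was found in 11 of the 26 list members with a promoter in the reference table (42.3%), in 38 of 966 promoters of genes higher in retina alone (3.93%) and in 259 of 10814 promoters of all genes tested (2.4%). A match is a run of letters and no evidence of binding.

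Before the response, the RPE libraries already held these transcripts. RPE NB means lay above retina NB means for 32 of 32 interferon genes, and above the retina 1d means for 27 of 32, with levels set across 2 separately normalized tables. The list summed to 307 to 334 CPM in retina NB, 986 to 1539 CPM at retina 1d, 3112 to 10747 CPM in RPE NB and 3754 to 7464 CPM at RPE 1d. By class, RPE NB exceeded retina NB for 75.9% of the 1244 genes higher in retina alone and 9.64% of the 1234 lower in retina alone, beside 40.4% of all 15105 genes. The NB values also enter the changes that define the classes, which tilts these 2 shares in the direction seen. They describe the classes and test nothing about levels before the response. The part of the surface epithelium transcripts in the RPE levels was not tested.

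**Figure D2:**
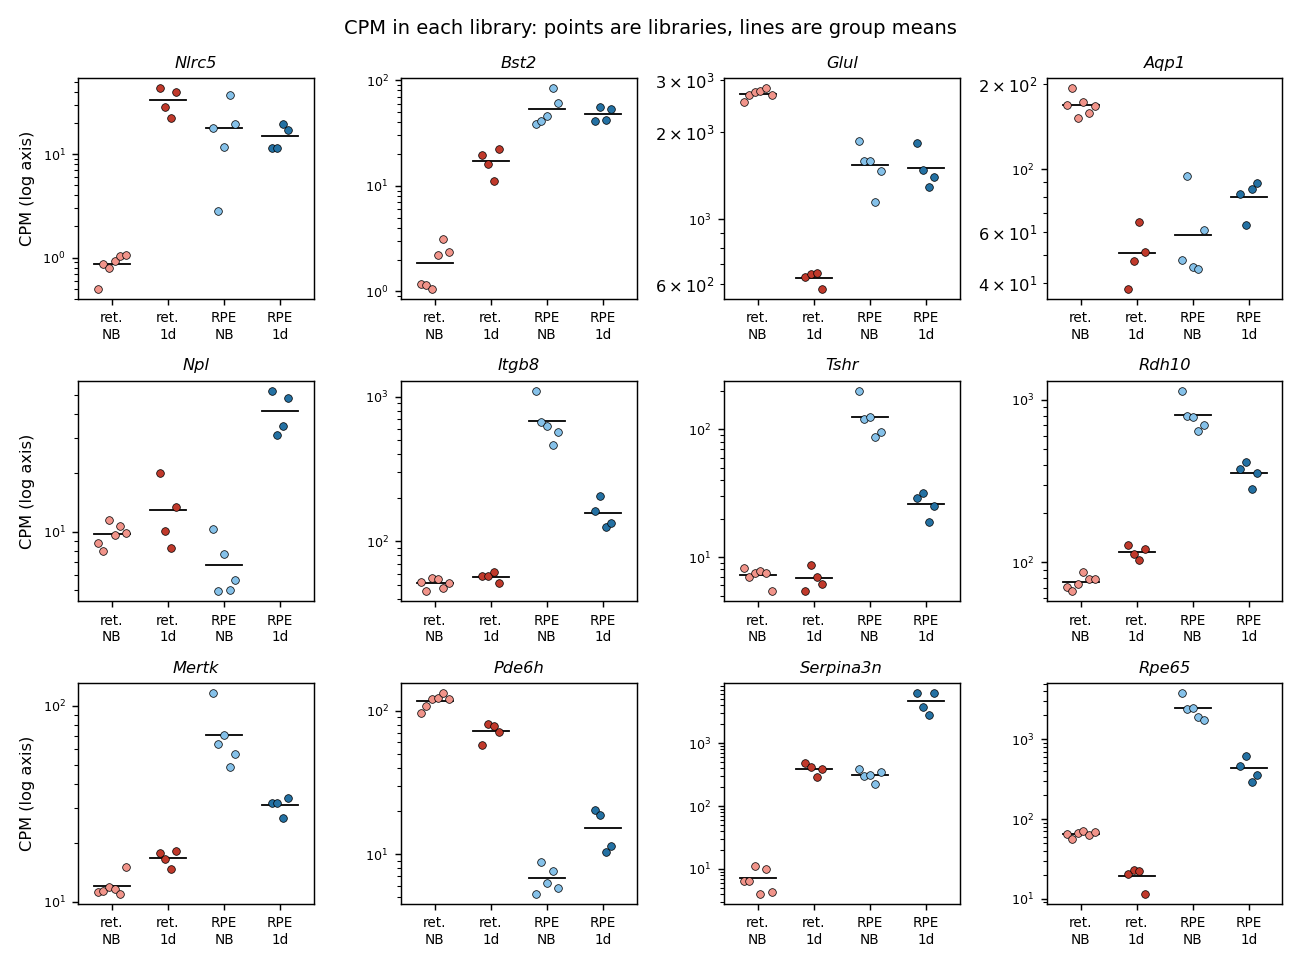
CPM of 12 genes in each library (points, log axis) with group means (lines) for retina NB, retina 1d, RPE NB and RPE 1d. Nlrc5 and Bst2 rise in retina, Nlrc5 to a mean above both RPE means and Bst2 to one below them, Itgb8 and Tshr fall in RPE alone, Rdh10 and Mertk move in opposite directions, and Serpina3n and Rpe65 move the same way in both tissues.

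Most genes of the AP-1, NF-kappaB and cell death lists rose in retina, and 1 gene of these 3 lists passed in RPE. Over all 15105 genes 25.6% rose and 27.6% fell in retina, 5.55% passed in RPE and the difference passed in 21.7%. The RPE counts of these short lists are not far from that RPE share. Of 18 immediate early and AP-1 genes, 13 rose in retina and none passed in RPE, and the difference passed in 9, all more positive in retina. Fosl1, an AP-1 subunit, changed by 4.29 ± 0.13 in retina and 0.78 ± 0.29 in RPE, and Myc, a growth regulator, by 2.52 ± 0.24 and -0.20 ± 0.26. Fosl1 was low in RPE, with means of 0.34 CPM in NB and 0.99 CPM at 1d. The latter was below the 2.04 CPM that the rod ratio gives. The difference for Fosl1 passed in all 32 other settings but ran from 2.20 to 6.77, so its size rests on the setting. Of 14 NF-kappaB genes, 12 rose and 1 (Tnfaip3, an inhibitor of the pathway) fell in retina, with none past in RPE and 8 differences past. Bcl3, an atypical inhibitor family member, had the largest of these (4.99 ± 0.14 in retina, 0.78 ± 0.30 in RPE with 95% interval 0.15 to 1.42). Its difference passed in all 32 other settings but ran from 2.62 to 6.29. Of 14 cell death genes, 12 rose and 1 fell in retina and 1 rose in RPE (Tnfrsf1a, 0.58 ± 0.13), with 6 differences past. Fas, a death receptor, changed by 2.27 ± 0.20 in retina and 0.004 ± 0.18 in RPE. Ripk1, a kinase of the same route, changed by 1.60 ± 0.091 and 0.016 ± 0.11.

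Genes that handle metals and oxidants were mostly on the retina side as well. Of 3 metallothioneins, Mt1 and Mt2 rose in retina (2.24 ± 0.12 and 2.96 ± 0.13) and did not pass in RPE (-0.042 ± 0.18 and 0.42 ± 0.18). Of 17 NRF2 and iron genes, 11 rose and 1 fell in retina and 3 rose and 1 fell in RPE, with 10 differences past. Over all 15105 genes 25.6% rose and 27.6% fell in retina, and 1.81% rose and 3.75% fell in RPE. The difference passed in 21.7% of all genes. Steap4, a metalloreductase, changed by 3.92 ± 0.21 in retina and 0.11 ± 0.34 in RPE. Hmox1, heme oxygenase 1, rose in both, by 2.77 and 0.93, and rose more in retina (difference 1.84 ± 0.25, adjusted p = 3.73e-06).

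Markers of microglia, vessels and complement also differed between tissues. The counts below stand beside 25.6% higher and 27.6% lower in retina and 1.81% higher and 3.75% lower in RPE over all 15105 genes. The difference passed in 21.7% of all genes. Of 21 microglia and macrophage genes, 12 rose and 2 fell in retina, 1 fell in RPE, and the difference passed in 12, all more positive in retina. Cd68, a lysosomal protein of phagocytes, changed by 1.94 ± 0.13 in retina and 0.48 ± 0.21 in RPE. Csf1r, the receptor that keeps microglia alive, fell in both, by 0.35 and 1.53, and fell more in RPE (difference 1.19 ± 0.22). Its fall in retina no longer passed with library totals or without retina 1d 2. The list summed to 96.5 to 134 CPM in retina NB and 216 to 334 CPM at retina 1d, without overlap, and to 1624 to 2302 and 2114 to 2371 CPM in RPE. A large part of the RPE sums was Gpnmb, also on the melanin list, with means of 987 CPM in RPE NB and 1110 CPM at RPE 1d. In bulk libraries more cells of a type and more RNA per cell cannot be told apart. Of 15 complement genes, 10 rose and 2 fell in retina, 3 rose and 1 fell in RPE, and 9 differences passed. Serping1, the C1 inhibitor, changed by 2.70 ± 0.15 in retina and 0.53 ± 0.20 in RPE. Of 12 endothelial genes, 8 rose in retina and 3 fell in RPE, and 8 differences passed. The 3 falls in RPE were 0 to 6 over the 32 other settings, with 0 without RPE NB A1, NB B1, 1d 1 or 1d 4 and 6 without RPE NB B3. Vwf, the clotting protein of vessel walls, changed by 1.94 ± 0.093 in retina and -0.38 ± 0.21 in RPE.

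Photoreceptor genes fell in retina, and none of them fell in RPE. Of 30 rod genes, 29 fell in retina (27.6% of all genes did), 1 rose in RPE, and 29 differences passed, each more negative in retina by -0.81 to -1.69. The list's median log2 change was -1.26 in retina and 0.17 in RPE. Gnb1, a G protein subunit that works with rod transducin, ranged from 4966 to 5504 with a median of 5274 CPM in retina NB and read 1413, 1981, 2413 and 1591 CPM at 1d. Its RPE values were 766, 854, 680.0, 845 and 709 CPM in NB and 778, 719.5, 632 and 617 CPM at 1d. Every retina 1d library was below every retina NB library, and the RPE groups overlapped (-1.54 ± 0.11 and -0.17 ± 0.17, difference -1.37 ± 0.20, adjusted p = 1.3e-05). Of 11 cone genes, 8 fell and 3 rose in retina, 4 rose in RPE, and 8 differences passed, all more negative in retina. Opn1mw, the medium-wave cone opsin, changed by -1.3 ± 0.12 in retina and 0.81 ± 0.38 in RPE.

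Transcripts of retinal cells in the RPE libraries were measured by marker sums. Over the 30 rod genes the median ratio of RPE to retina CPM was 7.42% in NB and 20.6% at 1d, with levels set across separately normalized tables. The rod sum fell in retina from 91800 to 101364 CPM in NB to 30177 to 51403 CPM at 1d, while in RPE it was 6453 to 9842 CPM in NB and 5140 to 12677 CPM at 1d, with overlap. Rod transcripts in RPE libraries were thus a larger part of the retina level at 1d. The sum of 11 cone genes was 110 to 155 CPM in RPE NB and higher at 1d, 208 to 438 CPM, without overlap. In retina it was 1839 to 1932 and 1557 to 1914 CPM, with overlap. A large part of the rise in RPE was the cone gene Gnb3, with means of 17.98 CPM in RPE NB and 163 CPM at RPE 1d. Gnb3 rose in retina as well, so the retina sums do not show the fall of 8 of the 11 cone genes there. Sums for inner retinal cells did not follow the rods. The 16 bipolar genes gave 826 to 1406 CPM in RPE NB and 650 to 1298 CPM at RPE 1d, beside 2586 to 2815 and 2645 to 2762 CPM in retina, and the 16 amacrine, horizontal and ganglion cell genes gave 409.9 to 519 and 340.2 to 523 CPM in RPE, beside 2071 to 2137 and 2289.7 to 2451 CPM in retina. The rod ratio used for the levels below is therefore that of rod genes alone. The part of retinal transcripts in RPE increases of retinal genes was not tested beyond the levels given here. Of the genes higher in RPE, 23 of 37 in RPE alone, 121 of 206 shared and 12 of 18 opposite had an RPE mean over 2 times the level that the rod ratios give. Of those lower in RPE, 201 of 208 in RPE alone, 180 of 195 shared and 95 of 105 opposite did.

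Stretches of 30 bases are shown for 2 rod genes and Rpe65 because each holds TAATCC, the core letters of CRX and OTX sites, on 1 strand (GGATTA as printed, in capitals). CRX drives photoreceptor genes and OTX2 acts in both photoreceptors and RPE. The matches begin 57, 53 and 42 bases before the RefSeq start listed first, and the first 2 windows were picked after the match was seen. That start is not the outermost one: the 250 bases before it lie wholly inside the annotated gene span for Guca1a and Aipl1, as do 106 of the 250 for Rpe65, its window included.
Guca1a (chr17:47400646-47400675, minus strand): cctgttaagaagGGATTAgcagactgcaaa
Aipl1 (chr11:72037545-72037574, minus strand): tcccctctggtgGGATTAtctaggcttgca
Rpe65 (chr3:159599127-159599156, plus strand): ctcctccaataaGGATTAgattgcatacaa
These letters occurred in 9 of 21 rod list promoters (42.9%), 64 of 904 promoters of genes lower in retina alone (7.08%), 13 of 147 shared lower (8.84%) and 579 of 10814 of all genes tested (5.35%).

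Among 16 Muller glia homeostasis genes, 7 rose and 4 fell in retina, 1 rose and 3 fell in RPE, and 7 differences passed. Over all 15105 genes 25.6% rose and 27.6% fell in retina, 1.81% rose and 3.75% fell in RPE, and 21.7% of differences passed. Glul (chr1:153899929-153909723) had the 1 difference of the 7 that was more negative in retina. It codes for glutamine synthetase, which clears glutamate. It ranged from 2536 to 2812 with a median of 2703 CPM in retina NB and read 634, 651, 654 and 577 CPM at 1d, a fall without overlap. RPE read 1857, 1591, 1586, 1149.7 and 1469 CPM in NB and 1824, 1475, 1286 and 1394 CPM at 1d. The log2 change was -2.10 ± 0.06 in retina and -0.03 ± 0.17 in RPE (95% interval -0.40 to 0.34), and the difference -2.07 ± 0.16 passed (adjusted p = 2.03e-10). Aqp1 (chr6:55336299-55348555), a water channel, ranged from 152 to 192 with a median of 168 CPM in retina NB and read 38.0, 47.7, 65.3 and 51.4 CPM at 1d. In RPE it read 48.1, 94.9, 45.3, 44.6 and 61.2 CPM in NB and 81.9, 63.5, 85.1 and 89.4 CPM at 1d. The retina groups do not overlap and the RPE groups do, through RPE NB B1 at 94.9 CPM. The responses were -1.75 ± 0.11 in retina and 0.49 ± 0.19 in RPE (adjusted p = 0.155, and 0.0149 without RPE NB B1, which would place Aqp1 among the opposite genes).

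The other genes named by rule as lower in retina alone were Crxos, Scn4a (a voltage-gated sodium channel) and Il20ra (a cytokine receptor subunit), with differences of -2.17, -2.11 and -2.09. Crxos lies opposite Crx, and the strand setting of the read counting is not given in the sources used here, so its reads cannot be told apart from those of Crx. Higher in retina alone were Lad1 (ladinin, an anchoring filament protein) and Tnnt2 (cardiac troponin T), with differences of 4.46 and 3.69. Tnnt2 reached 1.04 ± 0.31 in RPE (adjusted p = 0.0578, and 0.0281 with edgeR, under which it counts as shared).

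On the authors' scaling, the lists of energy genes had median log2 changes in retina of -0.30 (glycolysis) and -0.12 (oxidative phosphorylation). Of all 15105 genes, 27.6% fell in retina. Of 20 glycolysis genes, 14 fell and 2 rose in retina, 2 fell in RPE, and 5 differences passed, all more negative in retina. With library totals 3 passed in each direction. Hk2, the hexokinase of photoreceptors, ranged from 489 to 783 with a median of 545 CPM in retina NB and read 235, 260.1, 304 and 258 CPM at 1d. RPE read 60.8, 59.0, 47.9, 73.8 and 62.3 CPM in NB and 77.5, 68.9, 55.2 and 48.2 CPM at 1d. Its change was -1.15 ± 0.10 in retina and 0.029 ± 0.22 in RPE (difference -1.18 ± 0.25, adjusted p = 0.00106). Of 28 oxidative phosphorylation genes, 13 fell in retina, none passed in RPE and 6 differences passed. Both lists' shares of differences past the threshold were near the 21.7% of all genes. With library totals 8 of the 28 rose, 3 fell in retina and 1 difference passed, so this group's direction rests on the scaling.

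The RPE-alone response consisted mainly of decreases, 208 of 245 genes. For 147 of those 208 (70.7%) the RPE NB mean was above the retina NB mean, beside 40.4% of all genes. The RPE NB values also helped to choose these genes, so this share describes the class and is no test. Itgb8, the beta subunit of an integrin that activates transforming growth factor beta, read 1095, 664, 625, 466 and 571 CPM in RPE NB and 161, 207, 125 and 134 CPM at RPE 1d, without overlap. In retina it ranged from 45.3 to 55.7 with a median of 52.1 CPM in NB and read 58.1, 57.6, 61.6 and 51.4 CPM at 1d. The change was -2.09 ± 0.25 in RPE (adjusted p = 0.000105) and 0.16 ± 0.068 in retina (95% interval 0.014 to 0.30), with a difference of 2.25 ± 0.26. It kept the RPE alone class in 27 of 32 other settings and was opposite in the rest. Tshr, the thyrotropin receptor, read 199.8, 121, 125, 87.7 and 95.8 CPM in RPE NB and 29.0, 31.6, 18.9 and 25.3 CPM at 1d. Retina ranged from 5.46 to 8.28 with a median of 7.48 CPM in NB and read 5.41, 8.63, 6.98 and 6.21 CPM at 1d. Its RPE groups stand apart and its retina groups overlap (-2.20 ± 0.23 and -0.094 ± 0.13, difference 2.11 ± 0.27, adjusted p = 1.66e-06). Minar1, Crhr2 (a corticotropin-releasing hormone receptor) and Sv2c (a synaptic vesicle protein) had RPE changes of -2.23, -1.85 and -1.77.

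Genes of the visual cycle fell in RPE. Of 12 visual cycle genes, 8 fell in RPE (3.75% of all genes did) and none rose, while 5 fell and 3 rose in retina. The difference passed in 7, each more positive in retina. The list summed to 17019 to 29343 CPM in RPE NB and 7589 to 13348 CPM at RPE 1d, without overlap, and to 972 to 1278 and 944 to 1148 CPM in retina. Of 27 RPE identity and transport genes, 10 fell and 1 rose in RPE, 3 fell and 7 rose in retina, and 10 differences passed, from 0.63 to 1.26. Over the 32 other settings 5 to 13 of the 27 fell in RPE and 3 to 17 differences passed, with 3 for NB libraries of the shallower set, 6 without RPE 1d 3, 15 without RPE NB B3 and 17 with library totals. Trpm3, a cation channel whose gene hosts a microRNA, read 2090.0, 946, 979, 691 and 815 CPM in RPE NB and 526, 519, 412 and 403 CPM at 1d, and changed by 0.12 ± 0.074 in retina. Its RPE call rests on RPE 1d 4 (adjusted p = 0.0187, and 0.0569 without that library). Of 12 melanin synthesis genes, 5 fell in RPE and none in retina, where Gpnmb, also a macrophage gene, rose (2.16 ± 0.36). The difference passed in 3, and over the other settings 2 to 7 fell in RPE. A smaller share of RPE cells in the 1d libraries and less RNA of these genes per cell cannot be told apart.

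Increases in RPE alone were few, 37 genes. Npl (chr1:153503016-153549714), which codes for the enzyme that splits sialic acid, read 10.4, 4.95, 7.69, 5.05 and 5.68 CPM in RPE NB and 52.5, 31.2, 34.7 and 48.3 CPM at 1d, without overlap. Retina ranged from 8.001 to 11.5 with a median of 9.74 CPM in NB and read 19.9, 10.1, 8.20 and 13.4 CPM at 1d, with overlap. The change was 2.56 ± 0.22 in RPE (adjusted p = 7.26e-06) and 0.33 ± 0.20 in retina (95% interval -0.09 to 0.74), with a difference of -2.24 ± 0.32 (adjusted p = 7.12e-06). Atp1b2, a beta subunit of the sodium pump, read 287, 282, 258, 232 and 261 CPM in RPE NB and 1418, 1029, 584 and 1052 CPM at 1d, and ranged from 1209 to 1478 CPM in retina NB and 1139.8 to 1495 CPM at 1d. Its RPE change was 1.88 ± 0.21, and its RPE 1d mean stood above the 259 CPM that the rod ratio gives. Rbp3, the retinoid carrier between photoreceptors and RPE, rose by 1.00 in RPE, but its RPE 1d mean of 784 ± 263 CPM was below the 880.4 CPM that the rod ratio gives. Its RPE call was lost without RPE 1d 1, 1d 2, NB B2 or NB B4 (adjusted p from 0.0690 to 0.103) and with library totals (0.0518). Rtn4rl2, a Nogo receptor family gene, was likewise below it, and Slc30a2, a zinc transporter, above it.

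The promoter of Npl is shown as the first of its class with a reference promoter. It holds CACGTG, the E-box letters, in capitals, beginning 51 bases before the start.
Npl (chr1:153549715-153549964, minus strand): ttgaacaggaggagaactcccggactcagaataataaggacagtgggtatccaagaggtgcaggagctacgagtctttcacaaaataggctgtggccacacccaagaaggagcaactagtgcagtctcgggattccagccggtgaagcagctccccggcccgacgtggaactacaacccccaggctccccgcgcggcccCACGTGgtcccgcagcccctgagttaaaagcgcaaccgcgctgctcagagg
E-box letters occurred in 3 of 31 promoters of genes higher in RPE alone (9.68%) and in 895 of 10814 of all genes tested (8.28%). The matching first promoters for Lad1, Aqp1, Gcnt1 and Minar1 held none of the 6 motifs searched. That for Pde6h, of the genes lower in retina and higher in RPE, held the AP-1 letters TGANTCA, beginning 247 bases before the start. Those letters occurred in 1 of 15 promoters of that class (6.67%) and in 441 of 10814 of all genes tested (4.08%). For Minar1 and Pde6h all 250 bases lie inside the annotated gene span.

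Rdh10 and Mertk moved in opposite directions. Rdh10, a retinol dehydrogenase of the visual cycle, ranged from 66.4 to 86.8 with a median of 76.0 CPM in retina NB and read 128, 113, 103 and 121 CPM at 1d, against 1135, 797, 779.7, 639.7 and 698 CPM in RPE NB and 375, 415, 281 and 357 CPM at 1d. It rose by 0.61 in retina and fell by 1.17 in RPE (difference 1.78 ± 0.21, adjusted p = 2.95e-07), and neither tissue's groups overlap.

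Mertk, the receptor with which RPE engulfs outer segments, rose in retina by 0.47 and fell in RPE by 1.12. It ranged from 10.99 to 15.1 with a median of 11.5 CPM in retina NB and read 17.8, 16.6, 14.7 and 18.1 CPM at 1d, with 1 library inside the NB range, and read 115, 63.6, 70.6, 48.8 and 56.3 CPM in RPE NB and 31.9, 31.9, 26.6 and 33.9 CPM at 1d, without overlap. Its relative Axl, a receptor of the same family, rose in retina by 1.90 and did not pass in RPE (-0.07 ± 0.13, 95% interval -0.35 to 0.21). Timp3, an inhibitor of matrix proteases laid down under the RPE, rose by 0.51 and fell by 0.98. Without RPE 1d 4 its fall in RPE no longer passed (adjusted p = 0.0614). The vessel genes Tie1 and Plvap had the same pattern (0.61 and -0.85, 0.50 and -0.71), but Plvap kept the opposite class in 19 of 32 other settings and Tie1 in 24.

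Among the opposite genes named by size, several were low in level. Gpr139, an orphan receptor, rose from 3.00 to 3.64 CPM in retina NB to 7.27, 5.16, 6.46 and 5.79 CPM at 1d and fell in RPE from 8.77, 4.59, 4.16, 3.73 and 3.07 CPM to 0.316, 0.546, 0.695 and 0.159 CPM (difference 3.3 ± 0.32). Gcnt1, a glycosyltransferase, rose in retina by 2.30 and fell in RPE by 0.90. Its RPE values lay between 0.473 and 2.09 CPM, and it kept the opposite class in 17 of 32 other settings. Htr3a, a serotonin-gated channel, changed by 1.98 ± 0.13 in retina and -0.77 ± 0.17 in RPE, and Nyap2 by 0.36 ± 0.071 and -2.09 ± 0.31. Rdh10, Mertk, Gpr139 and Nyap2 kept the opposite class in all 32 other settings run without a minimum fold.

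The 18 reverse genes, lower in retina and higher in RPE, included photoreceptor genes. Pde6h, the inhibitory subunit of the cone phosphodiesterase, ranged from 97.0 to 132 with a median of 120.2 CPM in retina NB and read 57.3, 80.4, 77.7 and 71.2 CPM at 1d. RPE read 5.29, 8.81, 6.28, 7.61 and 5.83 CPM in NB and 20.4, 18.7, 10.3 and 11.4 CPM at 1d. It fell by 0.71 in retina and rose by 1.07 in RPE (adjusted p = 0.0478), where its 1d mean of 15.2 ± 5.07 CPM is near the 14.7 CPM that the rod ratio gives. The RPE call was lost on leaving out any of RPE 1d 1, 1d 2, 1d 4, NB A1, NB B1, NB B2 or NB B4 (adjusted p from 0.0536 to 0.137), and the class was kept in 20 of 32 other settings. Aipl1, a chaperone of phosphodiesterase, likewise fell in retina (-0.30 ± 0.072) and rose in RPE (1.11 ± 0.27) to a mean below the 136 CPM of the rod ratio. Its RPE call was lost without RPE 1d 1, 1d 2, NB B2 or NB B4 (adjusted p from 0.0513 to 0.0829), and its retina call with library totals. Bcan (brevican, of the neural matrix), Hs3st3b1 (a heparan sulfate enzyme), Ss18l2 and Ppa1 (a pyrophosphatase) had differences of -1.75, -1.21, -0.70 and -0.64. Ss18l2 and Ppa1 kept the class in 25 and 28 of the 32 other settings.

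Genes of glial reactivity rose in retina, and 12 of them rose in RPE as well. Of 24 glial reactivity genes, 23 rose in retina (25.6% of all genes did) and 12 in RPE (1.81% did), none fell in either, and the 12 were shared. The difference passed in 19, each more positive in retina, and the list's median was 3.09 in retina and 0.77 in RPE. Serpina3n, a secreted protease inhibitor, ranged from 4.04 to 11.2 with a median of 6.41 CPM in retina NB and read 482, 411, 289.9 and 386 CPM at 1d. RPE read 382, 303, 309, 224 and 353 CPM in NB and 6163, 3679, 2783 and 6138 CPM at 1d. Neither tissue's groups overlap, and the RPE 1d mean was far above the 80.7 CPM of the rod ratio. The log2 change was 5.76 ± 0.22 in retina and 3.84 ± 0.25 in RPE, a difference of 1.92 ± 0.36 (adjusted p = 0.000241). Stat3, the transcription factor of interleukin-6 family signals, ranged from 64.2 to 72.6 with a median of 68.2 CPM in retina NB and read 381, 371, 387 and 382 CPM at 1d. In RPE it read 122, 158, 159.9, 179 and 159 CPM in NB and 229, 225, 228 and 289.9 CPM at 1d. It rose by 2.48 ± 0.061 in retina and 0.64 ± 0.11 in RPE, more in retina (difference 1.83 ± 0.12, adjusted p = 2.49e-11). The RPE means of Stat3 were 156 CPM in NB and 243 CPM at 1d, beside 5.04 and 78.3 CPM that the rod ratios give. The part of retinal transcripts in its RPE rise was not tested.

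Some shared increases had RPE levels below the one that the rod ratio gives. Prss56, a serine protease made by Muller glia, ranged from 2.11 to 3.35 with a median of 2.77 CPM in retina NB and read 454, 258, 253 and 461 CPM at 1d. In RPE it read 0, 0, 0, 0.0776 and 0.230 CPM in NB and 26.2, 11.01, 5.40 and 4.76 CPM at 1d, below the 73.4 CPM that the rod ratio gives. Its difference of 2.58 ± 0.44 depends on the added 0.5 because RPE NB is at or near 0, and the count tests gave -0.66 (edgeR, adjusted p = 0.741) and -0.76 (DESeq2, adjusted p = 0.620). Crym, a thyroid hormone-binding protein, rose by 3.23 ± 0.13 in retina and 3.18 ± 0.36 in RPE to a mean of 30.4 ± 18.2 CPM, against 86.1 CPM by the rod ratio. Lcn2, an iron-binding lipocalin, and Serpine3, a serpin, rose in both tissues (3.13 ± 0.23 and 3.25 ± 0.36, 3.34 ± 0.25 and 4.29 ± 0.32) to RPE means above that ratio's level. Neither difference passed (-0.12 ± 0.45 and -0.96 ± 0.43). Gnb3, a cone transducin subunit, rose in retina by 1.3 and in RPE by 3.06, to an RPE mean below the 197 CPM of the rod ratio.

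A window of Prss56 is shown because the promoter listed first holds the letters of a STAT site, TTCNNNGAA, in capitals, beginning 152 bases before that start. Of that promoter's 250 bases, 212 lie inside the annotated gene span, the window included.
Prss56 (chr1:87183152-87183181, plus strand): aagggccgctTTCACAGAAgtggggagacg
These letters were in 15 of 144 promoters of shared higher genes (10.4%), 72 of 966 of genes higher in retina alone (7.45%) and 621 of 10814 of all genes tested (5.74%).

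Among the 195 shared decreases, 50 were larger in RPE and 9 larger in retina by the test of the difference, and for 136 the sizes did not differ past the threshold. For the 206 increases these counts were 45, 43 and 118. A shared gene had to pass in RPE, where the median SE was 0.17 against 0.084 in retina, so entry favored larger RPE changes. The counts describe the class and do not test which tissue changed more. Rpe65 read 3763, 2431, 2486, 1879 and 1752 CPM in RPE NB and 461, 613, 293 and 359.7 CPM at 1d, and ranged from 56.1 to 69.9 with a median of 65.2 CPM in retina NB and read 20.3, 23.0, 22.6 and 11.6 CPM at 1d. Neither tissue's groups overlap. It fell by 1.76 ± 0.18 in retina and 2.51 ± 0.27 in RPE, and the difference did not pass (0.75 ± 0.33, 95% interval 0.083 to 1.43, adjusted p = 0.101), whereas with library totals it did (0.94, adjusted p = 0.0433). Retina libraries hold RPE transcripts as well: over the 12 visual cycle genes the median ratio of retina to RPE CPM was 3.54% in NB and 11.7% at 1d. Their part in the retinal fall of Rpe65 was not tested. Enpp2, the secreted enzyme autotaxin, fell by 1.01 in retina and 1.77 in RPE, more in RPE (difference 0.76 ± 0.21), and Tmem72 likewise (-1.14 and -2.17). With NB libraries of the shallower set alone, neither of these 2 differences passed.

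**Figure D3:**
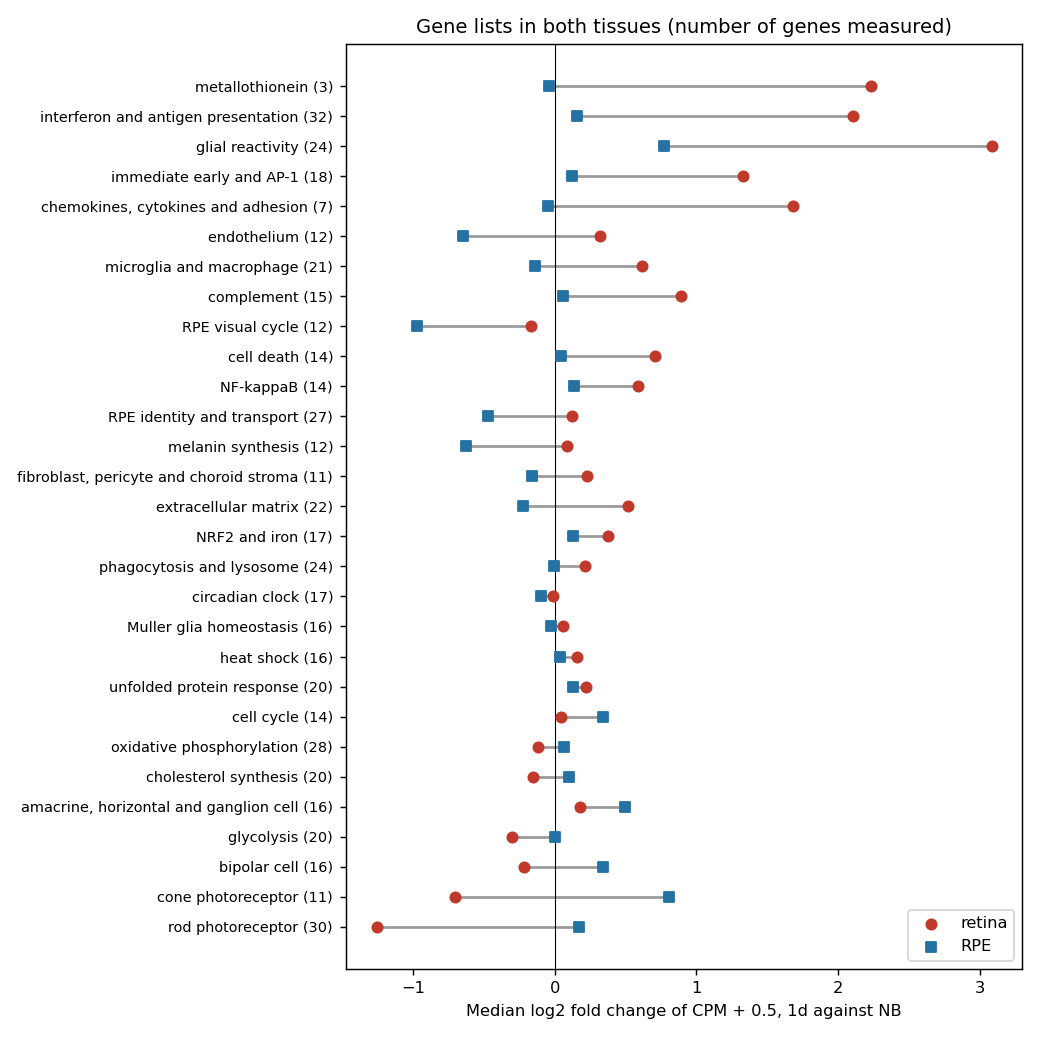
Median log2 fold change of 1d against NB for gene lists in retina (circles) and RPE (squares), ordered by the median tissue difference, with the number of genes measured in parentheses. The interferon list lies at 2.10 in retina and 0.15 in RPE, the rod list at -1.26 and 0.17, and the visual cycle list at -0.17 and -0.97.

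Further lists had fewer differences past the threshold or mixed directions, to be read beside the 21.7% of all genes whose difference passed. Their counts in each tissue stand beside 25.6% higher and 27.6% lower in retina and 1.81% higher and 3.75% lower in RPE over all genes. Of 20 unfolded protein response genes, 10 rose and 1 fell in retina and 2 rose in RPE (both also in retina), with 2 differences past. Of 16 heat shock genes, 8 rose and 4 fell in retina, 1 rose and 2 fell in RPE, and 7 differences passed, 5 of them more positive in retina. Hspa1a and Hspa1b, near-identical inducible chaperone genes whose reads may be split, were the 2 more negative in retina. Of 20 cholesterol synthesis genes, 11 fell and 2 rose in retina, none passed in RPE, and 1 difference passed (Lss, -0.41 ± 0.13, lost without RPE 1d 4 or retina 1d 4). With library totals 7 of the 20 rose and 1 fell in retina and 2 differences passed, both more positive in retina, so this group's direction also rests on the scaling. Of 16 bipolar genes and of 16 amacrine, horizontal and ganglion cell genes, 2 and 1 differences passed. Of 17 clock genes, 3 did. Of 7 chemokine, cytokine and adhesion genes, 5 rose and 1 fell in retina, 1 rose in RPE and 4 differences passed. Of 24 phagocytosis and lysosome genes, 15 rose and 4 fell in retina, 1 rose and 1 fell in RPE, and 10 differences passed, 9 of them more positive in retina. Of 22 extracellular matrix genes, 11 rose in retina, 1 rose and 1 fell in RPE and 6 differences passed, all more positive in retina. Of 14 cell cycle genes, 6 rose and 2 fell in retina, none passed in RPE and 4 differences passed, and of 11 fibroblast and pericyte genes 3 rose in retina, with 3 differences past. Of 4 red blood cell genes, 3 rose in retina with no difference past, and no neutrophil gene was measured in both tissues. The 1 T cell gene measured (Lck) rose in retina, but the call was lost without any 1 of retina 1d 1, 1d 4, NB A1, A2, B1 or B3 and with the replicate block, and its class was kept in 13 of 32 other settings.

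Lens transcripts varied between libraries. None of 15 lens genes passed in either tissue, with sums of 143 to 11490 CPM in retina and 1064 to 11544 CPM in RPE.

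**Figure D4:**
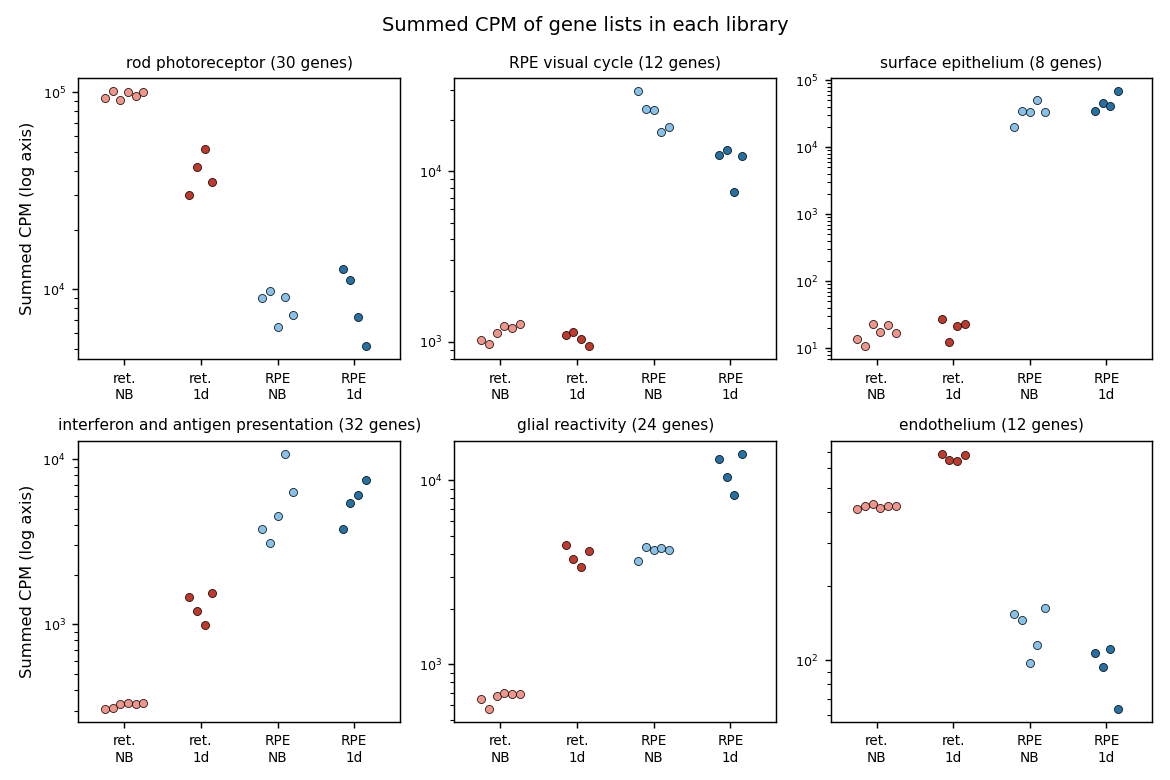
Summed CPM of 6 gene lists in each library (points, log axis) for retina NB, retina 1d, RPE NB and RPE 1d. The rod sum falls in retina from 91800 to 101364 CPM to 30177 to 51403 CPM and overlaps in RPE, the visual cycle sum falls in RPE without overlap, and the surface epithelium sum overlaps between RPE groups.

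Levels at the other times place the 1d values in a sequence of separate groups, given here as means without a test. The 6h libraries were of the deeper set, with 22.6 to 32.4 M reads in retina and 25.7 to 26.8 M in RPE. The 1d and 3d libraries were all of the shallower set. Time and depth set thus cannot be told apart between 6h and the later groups. Glul in retina averaged 1920.2 ± 108 CPM at 6h (n = 3), 629 ± 35.6 CPM at 1d (n = 4) and 2703 ± 153 CPM at 3d (n = 4), against 2698 ± 94.5 CPM in NB. Prss56 in retina averaged 8.28 ± 1.49, 357 ± 117 and 2.35 ± 0.722 CPM. Rpe65 in RPE averaged 944 ± 194, 432 ± 139 and 1960.2 ± 582 CPM, against 2462 ± 797 CPM in NB. Itgb8 and Tshr in RPE averaged 735 ± 202 and 98.5 ± 29.9 CPM at 3d, up from 157 ± 36.9 and 26.2 ± 5.51 CPM at 1d. Bst2 in retina averaged 2.04 ± 0.387 CPM at 6h, 17.2 ± 4.80 CPM at 1d and 10.5 ± 3.84 CPM at 3d.

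**Figure D5:**
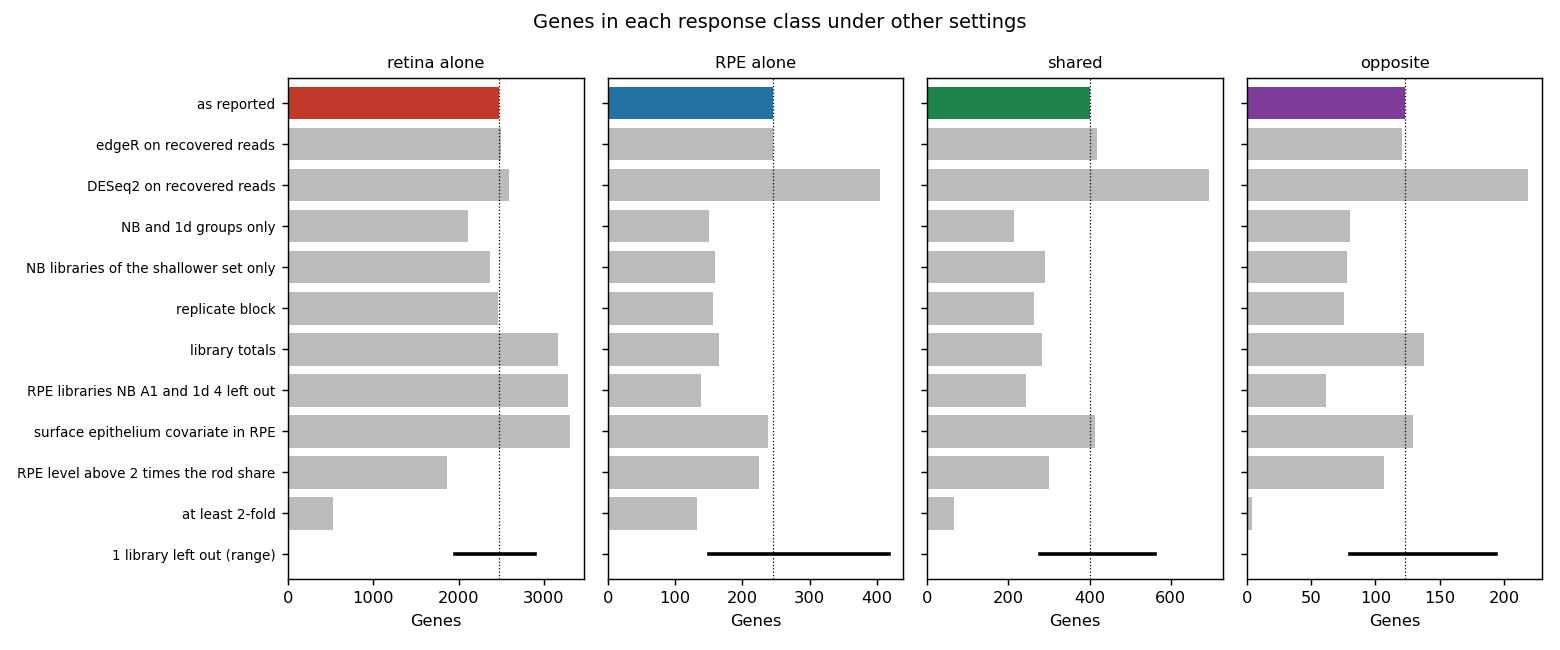
Number of genes in each response class as reported (colored bars) and under other settings (gray bars), with the range over leaving out 1 library (black lines). The retina alone class lies between 1860 and 3304 genes except with a 2-fold minimum (530), and the opposite class between 62 and 219 genes except with a 2-fold minimum (4).

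The class sizes moved with the RPE libraries used. With the summed surface epithelium level as a covariate of the RPE libraries, 972 genes passed in RPE and the classes held 3304 (retina alone), 238 (RPE alone), 414 (shared) and 129 (opposite) genes. Without RPE NB A1 and RPE 1d 4 they held 3285, 138, 244 and 62. Leaving out RPE NB B3 alone raised RPE alone to 418 and opposite to 194, and leaving out RPE NB B2 lowered them to 150 and 80. With NB libraries of the same depth set as the 1d libraries, 7819 genes passed in retina, 661 in RPE and 2956 differences.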

How the data were processed

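Messenger RNA of retina and RPE was sequenced from stranded libraries, per the labels' protocols. Trimmomatic, STAR, edgeR and the build GRCm38 are named in the submitters' processing notes, without versions, and the read counter is not given in the sources used here. The authors deposited gene tables for each tissue whose values are a signal per gene, reads scaled to the effective library size (CPM). In 100% of values this signal was a whole number of reads within 0.01 read, and reads and depth were recovered from it. The tissues were normalized separately.

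Genes with at least 1 CPM in at least 3 libraries of a tissue were tested on log2(CPM + 0.5) with limma 3.58.1 in R 4.3.3 (trend, Benjamini-Hochberg adjustment, threshold 0.05), with all 4 groups of a tissue in its fit and 8 groups in the fit of the difference. NB columns were matched to their group and not to a single sample. Count tests with edgeR 4.0.16 and DESeq2 1.42.0 on recovered reads, other scalings, pseudocounts and filters, and leaving out each library were alternatives. The rule for named genes took up to 5 genes for each direction of a class, by the size of the difference (for shared genes, by the smaller of both changes), with no overlap of 1d and NB in a called tissue and at least 2 CPM. It added up to 3 genes of each list by the adjusted p of the difference, and Abca4 and Rdh8. The values of 1 gene that the rule took are not reported here. Ipo13 and Hapln3, which mark the threshold, and the promoters of Bst2, Cxcl10, Guca1a and Aipl1 were picked after their values were seen. The genes, the 34 lists and the tests were chosen with earlier results of these data known. The fits were tested on simulated data. Promoters (250 bases before the start) and coordinates are from RefSeq GRCm38.p6. Accessibility libraries were not used here.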

Additional observations from a re-analysis of the deposited data

Results flagged for a closer look

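The 1d response differed between retina and RPE in 3284 genes by limma's test of the difference. The named genes among them are given as the log2 change in retina minus that in RPE. For genes higher in retina alone the values were 4.51 (Nlrc5), 4.46 (Lad1), 4.21 (Bcl3), 3.81 (Steap4) and 3.69 (Tnnt2). That for Bcl3 ran from 2.62 to 6.29 over the 32 other settings. For genes lower in retina alone they were -2.24 (Aqp1), -2.17 (Crxos), -2.11 (Scn4a), -2.10 (Opn1mw) and -2.09 (Il20ra).

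For genes higher in RPE alone the values were -2.24 (Npl), -1.97 (Atp1b2), -1.32 (Slc30a2), -1.22 (Rtn4rl2) and -1.15 (Rbp3). Genes lower in RPE alone had 2.57 (Minar1), 2.25 (Itgb8), 2.18 (Crhr2), 2.11 (Tshr) and 1.88 (Sv2c). Genes higher in retina and lower in RPE had 3.3 (Gpr139), 3.19 (Gcnt1), 2.75 (Htr3a) and 2.45 (Nyap2), and the reverse had -1.78 (Pde6h), -1.75 (Bcan), -1.21 (Hs3st3b1), -0.70 (Ss18l2) and -0.64 (Ppa1). Shared genes whose difference passed had 2.58 (Prss56), 1.92 (Serpina3n), 1.03 (Tmem72) and 0.76 (Enpp2). The value for Prss56 depends on the added 0.5, and with edgeR and DESeq2 it was negative and did not pass. Those for Tmem72 and Enpp2 did not pass with NB libraries of the shallower set alone.

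RPE NB A1 stood apart for Gpr139, at 8.77 CPM against 4.59 CPM in the next RPE NB library, a gap of 0.734 of the group's range. It was 1 of 84 groups tested for such a gap over 16 genes and 5 marker sums, and chance gives about 1 in 20.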

How the results depend on the processing

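With a minimum of 2-fold, 980 genes passed in retina, 370 in RPE and 1000 in the difference, and the classes of retina alone, RPE alone, shared and opposite held 530, 133, 65 and 4 genes. With NB and 1d groups alone in the fits, 537 genes passed in RPE, and RPE alone, shared and opposite held 151, 214 and 80. With NB libraries of the shallower set, RPE alone and opposite held 159 and 78. With the replicate block, 574 genes passed in RPE and RPE alone, shared and opposite held 157, 264 and 76. The pairing by number was not regular: deviations of same-numbered NB (B set) and 1d libraries correlated at 0.11, 0.14, -0.14 and 0.23 in retina and 0.32, 0.18, -0.0066 and -0.096 in RPE, and those of retina and RPE 1d libraries at -0.088, -0.023, 0.067 and 0.20. Since not every pair was over 0.1, the fits without the block were kept. DESeq2 passed 1668 genes in RPE, and RPE alone, shared and opposite held 404, 694 and 219. Without RPE NB A1 and RPE 1d 4, a choice made after seeing the data as was the surface epithelium covariate, these counts were 515, 138, 244 and 62. With a tighter interval bound (the lowest tried), 517 retina genes and 138 RPE genes were bounded in the other tissue. With library totals, 9511 genes passed in retina, 74.3% of them higher against 46.5% as reported.

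On leaving out 1 library, 7742 to 8685 genes passed in retina, 618 to 1426 in RPE and 2634 to 3752 in the difference, and the classes held 1953 to 2896 (retina alone), 150 to 418 (RPE alone), 277 to 562 (shared) and 80 to 194 (opposite). RPE NB B3 and NB B2 moved counts by over 1.5 times, as did NB A1 for RPE alone (158). The difference for Prss56 turned to -0.66 with edgeR and -0.76 with DESeq2. Of 4192 values for 131 genes, 4085 kept the call, 58 lost it, 47 gained it and 2 reversed. The 4085 include changes of sign where neither value passed, as for Crym, whose difference ran from -0.40 to 0.51. Precision limits the RPE calls: the median SE there was 0.17, against 0.084 in retina.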
